A study of Mus musculus with 8 samples.

Results

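The inhibitory checkpoint receptors are surface proteins that restrain T cells after activation. The group described here was chosen by gene symbol and holds 9 of the 45232 genes in the deposited table: Pdcd1, Ctla4, Lag3, Havcr2, Cd160, Btla, Cd200, Cd200r1 and Cd101. Cd200 is listed with them although its protein is the ligand of the receptor made from Cd200r1. The 9 genes were read in 8 libraries of CD8 T cells from OT-I mice, which carry a transgenic receptor for SIINFEKL, a peptide of ovalbumin. All cells were activated with that peptide and cultured for 5 days with IL-2 in RPMI with fetal bovine serum. The tested medium also held 470 µM o-phosphoethanolamine (pEtn), a precursor of the membrane lipid phosphatidylethanolamine, and the control medium was RPMI without it. There were 4 numbered libraries with pEtn and 4 in RPMI. The labels do not say whether the numbered libraries came from separate mice or cultures, so the p-values measure only the spread between these libraries, which may be technical.

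T cell activation switches on most of these receptors, and cells that meet antigen for a long time keep them at a high level. Several bind ligands, often on neighbouring cells, and weaken the signal of the T cell receptor or of its costimulator CD28. PD-1, the product of Pdcd1, recruits phosphatases through tyrosine motifs in its tail, while CTLA-4 takes the ligands CD80 and CD86 away from CD28. Blocking antibodies to PD-1, CTLA-4 and LAG-3 are used as cancer medicines.

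Total counts ran from 29223765 to 35504571 per library with pEtn and from 31280997 to 34474420 in RPMI. The 7 CD8 T cell markers Cd3d, Cd3e, Cd3g, Cd8a, Cd8b1, Cd2 and Lat lay between 143 and 501 CPM (counts scaled to library size by the TMM method) in every library. Cd4 did not exceed 1.03 CPM and Foxp3, which defines regulatory T cells that carry much CTLA-4, did not exceed 0.412 CPM. Markers of other cells were partly present: Xcr1 and H2-Ab1 of dendritic cells reached 32.7 and 36.5 CPM, Cd68 of myeloid cells 11.2 CPM, Cd79b of B cells 3.01 CPM, Klrb1c and Fcer1g of NK cells 33.7 and 36.1 CPM, and Trdc of gamma delta T cells 167 CPM. The B cell genes Ms4a1 and Pax5, the NK cell genes Klra8 and Klra4, the macrophage gene Adgre1, the neutrophil gene S100a8 and the dendritic cell gene Siglech had 0 counts in all 8 libraries. The 5 NK cell markers summed to between 13.3 and 63.6 CPM with pEtn and between 41.8 and 67.6 CPM in RPMI, and the 3 gamma delta T cell markers to between 184 and 226 CPM with pEtn and between 152 and 220.3 CPM in RPMI. Same-numbered libraries of the 2 media resembled each other across all genes, so values are also given by replicate number and from a fit with that number as a block. Libraries 3 and 4 within a medium differed far less than other pairs did: the chi-square per gene between them was 5.04 with pEtn and 11.2 in RPMI, against 51.1 to 107 for the other pairs. Nothing in the labels says what a number stands for.

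Of the 9 genes, 8 passed the filter on low counts, and Cd200 did not. With pEtn, Pdcd1 and Ctla4 rose close to 2-fold. The called genes were thus 2 of 8 higher, beside 5.22% of the 11862 genes tested that were called higher, 7.56% called lower and 12.8% in either direction (edgeR quasi-likelihood test, adjusted p under 0.05). Over all 8 libraries and without the replicate number, none of the 8 was called lower by edgeR, DESeq2 or limma. At an unadjusted edgeR p under 0.05 there were 4 higher and 0 lower, and the share of all genes at that threshold was not computed. Replicates 3 and 4 alone gave 5 higher and 2 lower (Btla and Cd160), beside 5675 of the 11788 genes tested there that were called in either direction. That was a fit of libraries that lay close together. With the replicate number as a block, Pdcd1, Ctla4, Lag3 and Cd200r1 rose and Btla fell, 4 higher and 1 lower of 8, beside 15.8% of all genes tested called higher, 16.5% called lower and 32.3% in either direction. With replicates 3 and 4 of each medium summed, none of the 8 was called without the block, beside 325 of 11992 genes tested. With the block the same counts of 4 higher and 1 lower came from that sum, beside 2329 of 11992 genes. The median log2 fold change of the 8 genes was 0.84, beside 0.02 over all genes tested.

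The promoters of the 2 genes that rose in both fits are shown with that of Btla, which fell with the block, so that the letters around their start sites can be compared. RefSeq promoter windows (build GRCm38.p6, 250 bases before to 50 bases after the start) were matched to 7 of the 9 genes. Capitals mark GGAAA on either strand, the core bound by NFAT factors that carry calcium signals of the T cell receptor.
Pdcd1 promoter, chr1:94052504-94052803, minus strand: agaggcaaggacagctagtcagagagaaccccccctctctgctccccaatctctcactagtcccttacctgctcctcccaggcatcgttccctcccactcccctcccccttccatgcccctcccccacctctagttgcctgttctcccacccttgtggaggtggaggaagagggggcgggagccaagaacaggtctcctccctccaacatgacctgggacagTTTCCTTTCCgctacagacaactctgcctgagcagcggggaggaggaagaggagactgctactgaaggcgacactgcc
Ctla4 promoter, chr1:60908775-60909074, plus strand: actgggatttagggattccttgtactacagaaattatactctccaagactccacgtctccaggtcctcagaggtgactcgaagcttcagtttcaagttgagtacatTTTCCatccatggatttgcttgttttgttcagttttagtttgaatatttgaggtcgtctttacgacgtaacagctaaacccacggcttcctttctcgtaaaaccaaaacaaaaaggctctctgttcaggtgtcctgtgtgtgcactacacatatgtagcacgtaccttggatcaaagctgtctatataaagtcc
Btla promoter, chr16:45224087-45224386, plus strand: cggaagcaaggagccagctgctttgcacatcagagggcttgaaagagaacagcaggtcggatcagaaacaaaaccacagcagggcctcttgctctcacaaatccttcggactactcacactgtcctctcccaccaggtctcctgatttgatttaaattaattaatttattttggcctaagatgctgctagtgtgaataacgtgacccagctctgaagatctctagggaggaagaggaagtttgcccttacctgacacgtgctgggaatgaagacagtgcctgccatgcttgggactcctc
The core GGAAA was found 2 times in the Pdcd1 window, 1 time in that of Ctla4 and 0 times in that of Btla. Among the windows not shown, it was found 1 time in that of Cd101 and 0 times in those of Havcr2 and Cd200. Cd160 had 2 windows, with 1 match in the one at chr3:96814472-96814771 and 0 in the one at chr3:96829302-96829601. At least 1 match was in 61.3% of 32851 promoter windows of the same length. Also searched on both strands were TGANTCA (AP-1), AAAGGTCA (the monomer site of NR4A receptors) and TTCNNNGAA (STAT dimers). None of these 3 was in the windows shown, and they occurred in 7.8%, 1.5% and 8.3% of all windows. Among the windows not shown, Havcr2 had 1 match to TGANTCA and Cd160 had 1 match to TTCNNNGAA. A match is a description of letters only, and motifs outside these windows were not searched.

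Pdcd1 (ENSMUSG00000026285) encodes PD-1, the receptor of PD-L1 and PD-L2. Its level was 79.1, 41.4, 38.6 and 37.7 CPM in pEtn libraries 1 to 4, against 33.8, 16.7, 26.5 and 22.3 CPM in RPMI libraries 1 to 4. The media did not overlap, which held for 9.74% of all genes tested in that direction, 20.4% in either and 10.6% in the other, and pEtn library 1 stood far above the other 3. Pdcd1 averaged 49.2 ± 20.01 CPM with pEtn and 24.8 ± 7.22 CPM in RPMI (SD, n = 4 each). The log2 fold change was 0.99 (SE 0.28, edgeR adjusted p = 0.0480), and 0.96 (SE 0.13, edgeR adjusted p = 0.00141) with the block. By replicate number the log2 difference was 1.22, 1.30, 0.54 and 0.76. The call without the block was lost when any single library other than RPMI replicate 1 was left out, with adjusted p between 0.0587 and 0.116, and the fold fell to 0.66 on the log2 scale without pEtn replicate 1.

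Ctla4 (ENSMUSG00000026011) encodes CTLA-4, which binds CD80 and CD86 more tightly than CD28 does. It stood at 191, 111, 115 and 125 CPM in pEtn libraries 1 to 4, against 101, 66.3, 52.3 and 59.5 CPM in RPMI libraries 1 to 4. Again the media did not overlap, and library 1 was the highest in both. The means were 136 ± 37.3 CPM with pEtn and 69.7 ± 21.5 CPM in RPMI (SD, n = 4 each), a log2 fold change of 0.96 (SE 0.23, edgeR adjusted p = 0.0262). With the block it was 0.97 (SE 0.08, edgeR adjusted p = 0.000204), and the differences by number were 0.92, 0.75, 1.14 and 1.07. Without the block, leaving out pEtn replicate 1 or 4 or RPMI replicate 2, 3 or 4 lifted the adjusted p to between 0.0518 and 0.0758.

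**Figure D1:**
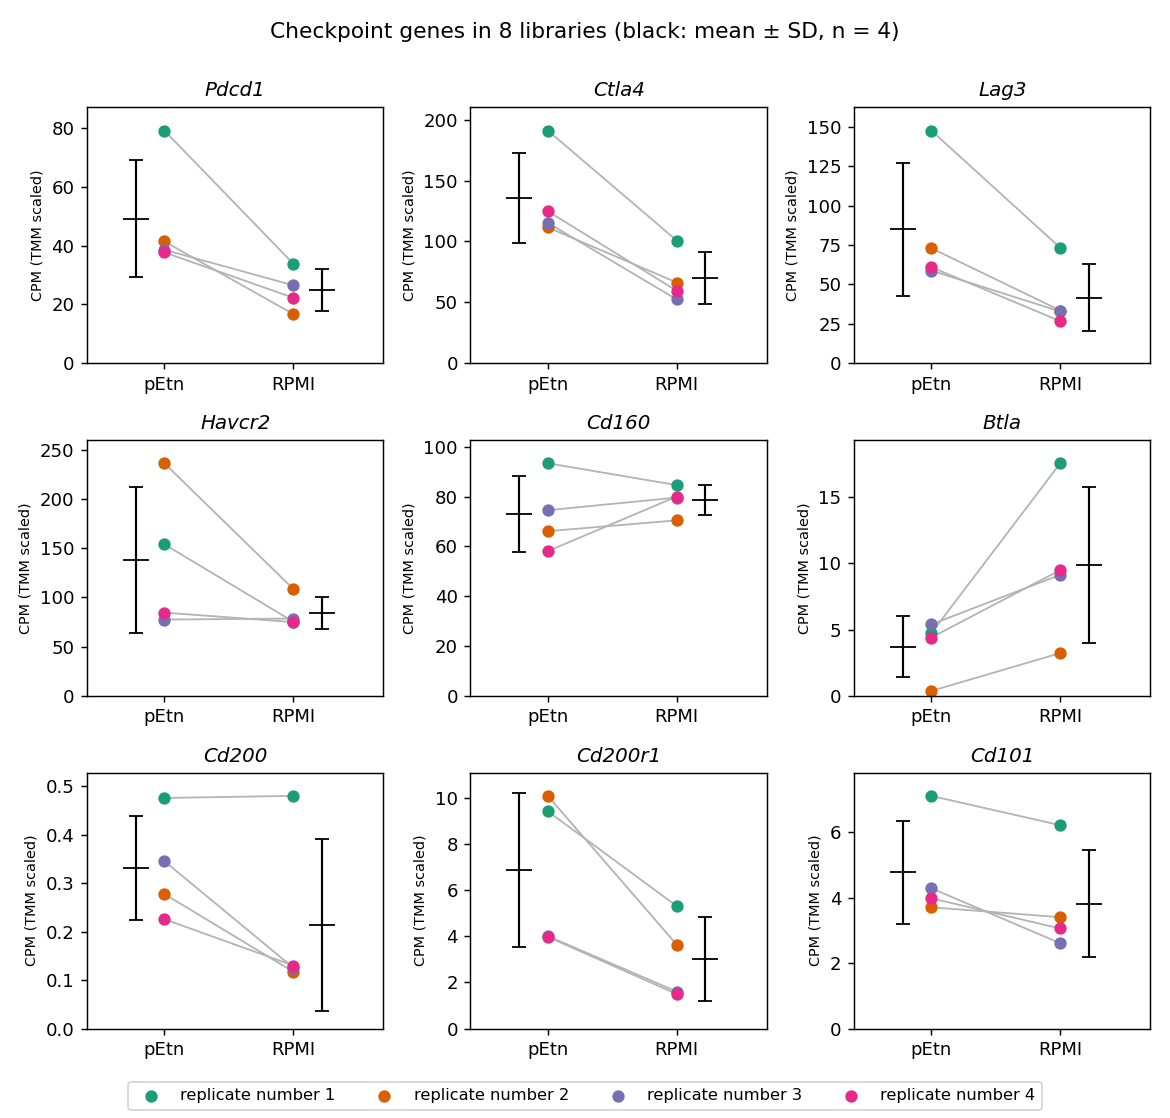
CPM of each of the 9 genes in the 4 pEtn libraries (left) and the 4 RPMI libraries (right), with grey lines joining libraries of the same replicate number and black bars giving mean ± SD. Pdcd1 and Ctla4 do not overlap between the media, every line of Lag3 and Cd200r1 is higher with pEtn, and every line of Btla is lower with pEtn.

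Lag3 (ENSMUSG00000030124) encodes a receptor of MHC class II and of fibrinogen-like protein 1. It had 148, 73.1, 58.8 and 61.0 CPM in pEtn libraries 1 to 4, against 73.3, 33.5, 32.8 and 26.7 CPM in RPMI libraries 1 to 4. Library 1 was the highest in both media, and the media overlapped because RPMI library 1 lay at the level of pEtn library 2. Lag3 averaged 85.2 ± 42.2 CPM with pEtn and 41.6 ± 21.4 CPM in RPMI (SD, n = 4 each), with a log2 fold change of 1.03 (SE 0.38, edgeR adjusted p = 0.105). Within numbers the spread was far smaller: the log2 differences were 1.01, 1.12, 0.84 and 1.19. The fold with the block was 1.04 (95% interval 0.86 to 1.23, edgeR adjusted p = 0.000153). Without the block Lag3 was called when RPMI replicate 1 was left out (log2 fold change 1.45, edgeR adjusted p = 0.0227) and by DESeq2 (adjusted p = 0.0263).

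Cd200r1 (ENSMUSG00000022667) encodes the receptor of CD200, best known for restraining myeloid cells. Its level was 9.42, 10.1, 4.01 and 3.98 CPM in pEtn libraries 1 to 4, against 5.31, 3.64, 1.60 and 1.50 CPM in RPMI libraries 1 to 4. Libraries 1 and 2 were higher than libraries 3 and 4 in both media, and the media overlapped. The log2 fold change was 1.19 (SE 0.48, edgeR adjusted p = 0.135), and 1.24 (SE 0.16, edgeR adjusted p = 0.00105) with the block. Cd200r4, a paralog whose product is an activating receptor, had 281, 322, 146 and 156 counts with pEtn against 88, 141, 51 and 38 counts in RPMI, beside 297, 327, 116 and 141 against 177, 124, 51 and 46 counts for Cd200r1. Cd200r4 on its own rose by 1.55 on the log2 scale without the block (SE 0.41, edgeR adjusted p = 0.0359) and by 1.61 with it (edgeR adjusted p = 0.000324). The call without the block was lost in 5 of 8 fits that left out a library, and with replicates 3 and 4 summed (edgeR adjusted p = 0.105). Reads could be split between the near copies Cd200r1 and Cd200r4, so the value of each gene is uncertain. Summed into 1 row, as an alternative chosen after seeing the data, they gave a log2 fold change of 1.36 without the block, which was not called (edgeR adjusted p = 0.0635), and 1.41 with it (edgeR adjusted p = 0.000180). The paralogs Cd200r2 and Cd200r3 had at most 2 counts in any library.

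Cd200 (ENSMUSG00000022661), the ligand gene, was close to undetected. It had 15, 9, 10 and 8 counts in pEtn libraries 1 to 4, against 16, 4, 4 and 4 counts in RPMI libraries 1 to 4. The media overlapped, since RPMI library 1 held the most. With no filter on low counts the log2 fold change was 0.61 (edgeR adjusted p = 0.557), and no difference was detectable at this depth.

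Btla and Cd160 encode 2 receptors of the same ligand, HVEM, the product of Tnfrsf14. Btla (ENSMUSG00000052013) stood at 4.73, 0.370, 5.39 and 4.40 CPM in pEtn libraries 1 to 4, against 17.6, 3.23, 9.14 and 9.49 CPM in RPMI libraries 1 to 4. Library 2 was the lowest in both media, with 12 counts with pEtn and 110 counts in RPMI. The media overlapped through RPMI library 2, and Btla averaged 3.72 ± 2.27 CPM with pEtn and 9.85 ± 5.88 CPM in RPMI (SD, n = 4 each). The log2 fold change was -1.40 (SE 0.67, edgeR adjusted p = 0.200). With the block Btla fell by 1.53 on the log2 scale (SE 0.32, edgeR adjusted p = 0.0119), and it was lower with pEtn in 4 of 4 numbers, with log2 differences of -1.87, -2.82, -0.75 and -1.09, beside 23.9% of all genes tested. Without number 1 the blocked call was lost (edgeR adjusted p = 0.0537).

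Cd160 (ENSMUSG00000038304), whose protein is anchored by a lipid in mouse and human, did not show a difference of that size. It had 93.4, 66.1, 74.5 and 58.1 CPM in pEtn libraries 1 to 4, against 84.6, 70.4, 79.6 and 80.01 CPM in RPMI libraries 1 to 4. The pEtn libraries spread over the whole range of the RPMI libraries and past it on both sides. The log2 fold change was -0.11 (95% interval -0.43 to 0.21, edgeR adjusted p = 0.673), and -0.13 (95% interval -0.35 to 0.10, edgeR adjusted p = 0.364) with the block. On replicates 3 and 4 alone it was -0.28 (edgeR adjusted p = 0.0353).

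Havcr2 (ENSMUSG00000020399) encodes TIM-3, a receptor with several proposed ligands, galectin-9 among them. It had 154, 236, 77.4 and 84.5 CPM in pEtn libraries 1 to 4, against 75.3, 109, 78.5 and 74.9 CPM in RPMI libraries 1 to 4. The pEtn libraries 1 and 2 were above every RPMI library, while pEtn libraries 3 and 4 lay among them. The differences by number were 1.03 and 1.12 in numbers 1 and 2, and -0.02 and 0.17 in numbers 3 and 4. The log2 fold change over all libraries was 0.71 (SE 0.33, edgeR adjusted p = 0.186), and 0.58 (SE 0.22, edgeR adjusted p = 0.0971) with the block. Without number 3 the blocked fold was 0.78 (edgeR adjusted p = 0.0323). Whether the response differs between the numbers was not tested. The myeloid marker Cd68 also followed the numbers, at 9.33, 11.2, 3.91 and 3.41 CPM in pEtn libraries 1 to 4 against 4.08, 7.86, 1.98 and 2.67 CPM in RPMI libraries 1 to 4, and its part in the values of Havcr2 and Cd200r1 was not tested. The 8 myeloid markers summed to between 5.30 and 15.7 CPM with pEtn and between 3.20 and 11.1 CPM in RPMI, with Adgre1 and S100a8 at 0 in all libraries. Itgam and Fcgr3 were also present, at up to 2.38 and 3.08 CPM, both in pEtn library 1, against 1.47 and 1.56 CPM in RPMI library 1, and neither they nor Cd68 was called (edgeR adjusted p = 0.439, 0.578 and 0.368). Of the RNA quality markers, Neat1 followed the numbers too, at 30.3, 35.9, 9.57 and 8.97 CPM with pEtn against 30.5, 25.5, 4.55 and 3.84 CPM in RPMI. Malat1 had 18.1, 22.2, 18.5 and 17.2 CPM with pEtn against 19.7, 25.6, 7.03 and 6.73 CPM in RPMI. Neither was called (edgeR adjusted p = 0.763 for Neat1 and 0.601 for Malat1), and their relation to the values of Havcr2 and Cd200r1 was not tested.

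Cd101 (ENSMUSG00000086564) encodes an immunoglobulin superfamily protein found on late exhausted CD8 T cells in mice. It stood at 7.11, 3.70, 4.29 and 3.98 CPM in pEtn libraries 1 to 4, against 6.21, 3.40, 2.61 and 3.06 CPM in RPMI libraries 1 to 4. The media overlapped, and library 1 was the highest in both. The log2 fold change was 0.32 (95% interval -0.40 to 1.03, edgeR adjusted p = 0.565), and 0.35 (edgeR adjusted p = 0.123) with the block.

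**Figure D2:**
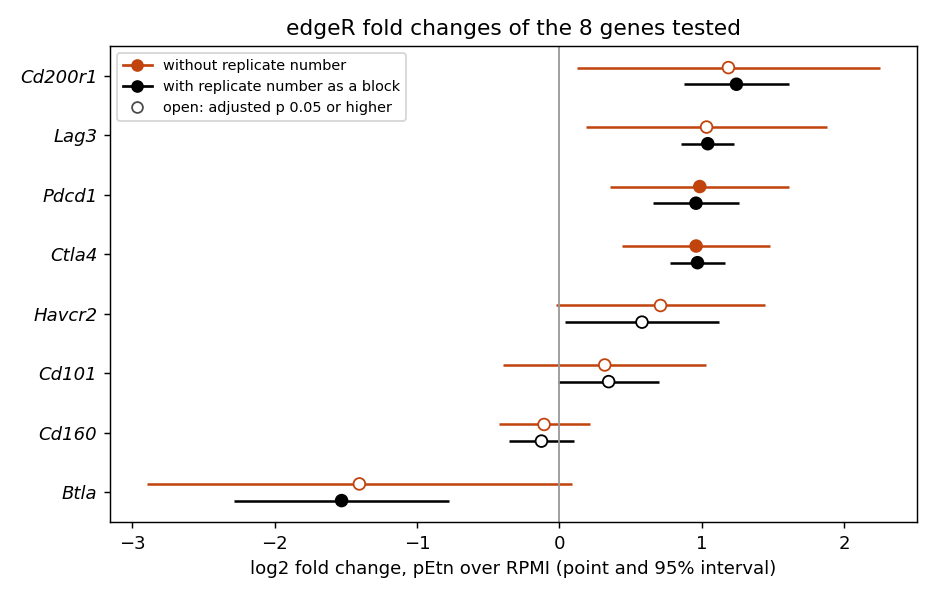
log2 fold change of pEtn over RPMI with its 95% interval for the 8 genes tested, without (orange) and with (black) the replicate number as a block, with filled points at an adjusted p under 0.05. The folds barely move between the fits, while the intervals narrow with the block, for Lag3 with an SE of 0.08 with it and 0.38 without it.

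Across the 9 genes, Pdcd1, Ctla4, Lag3, Cd200r1 and Cd101 were higher with pEtn in 4 of 4 numbers, and Btla was lower in 4 of 4. Among all genes tested 25.1% were higher in 4 of 4 and 23.9% lower in 4 of 4. The differences of Pdcd1, Ctla4, Lag3 and Cd200r1 lay between 0.54 and 1.45 on the log2 scale, and those of Cd101 between 0.12 and 0.70. Havcr2 and Cd200 were higher in 3 of 4 numbers and Cd160 in 1 of 4.

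**Figure D3:**
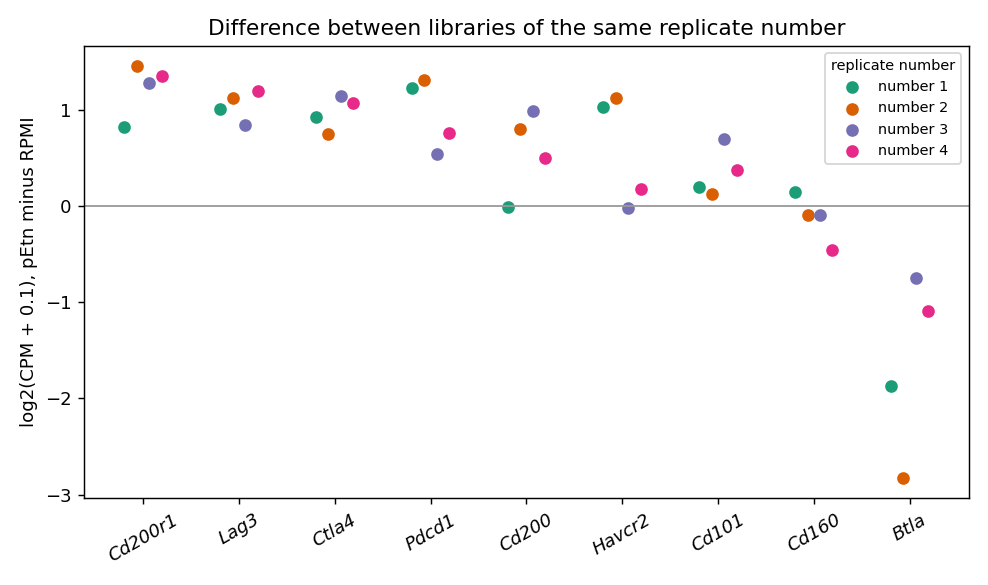
Difference in log2(CPM + 0.1), pEtn minus RPMI, between libraries of the same replicate number for each of the 9 genes, ordered by the median difference. The 4 points of Lag3 lie between 0.84 and 1.19, those of Havcr2 split into 2 near 1 and 2 near 0, and those of Btla lie between -2.82 and -0.75.

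Levels between genes were compared in the authors' deposited TPM values, which are per transcript length. The genes fell into 2 tiers that did not overlap in any library, a split made after seeing the values: Ctla4, Havcr2, Lag3, Cd160 and Pdcd1 between 22.6 and 225 TPM, and Cd200r1, Cd101, Btla and Cd200 between 0.0922 and 14.4 TPM. With pEtn the mean levels of the upper tier ran from Ctla4 at 153 ± 44.4 TPM through Havcr2 at 133 ± 70.4 TPM, Lag3 at 106 ± 54.2 TPM and Cd160 at 72.6 ± 15.7 TPM to Pdcd1 at 67.1 ± 28.2 TPM (SD, n = 4). Neighbours in that order differed by less than the larger of their SDs. In RPMI it ran from Havcr2 at 80.8 ± 15.6 TPM through Ctla4 at 78.3 ± 25.7 TPM, Cd160 at 77.7 ± 6.54 TPM and Lag3 at 51.8 ± 27.7 TPM to Pdcd1 at 33.6 ± 10.3 TPM (SD, n = 4). There too neighbours differed by less than the larger of their SDs, and Pdcd1 was the lowest of the tier in 4 of 4 libraries. In the lower tier Btla averaged 3.01 ± 1.83 TPM with pEtn and 7.93 ± 4.87 TPM in RPMI, and Cd200r1 8.87 ± 4.31 TPM with pEtn and 3.89 ± 2.42 TPM in RPMI (SD, n = 4 each). Cd200r1 was above Btla in 4 of 4 pEtn libraries, while in RPMI it was above Btla in library 2 only. Cd200 was the lowest of the 9 in all 8 libraries.

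**Figure D4:**
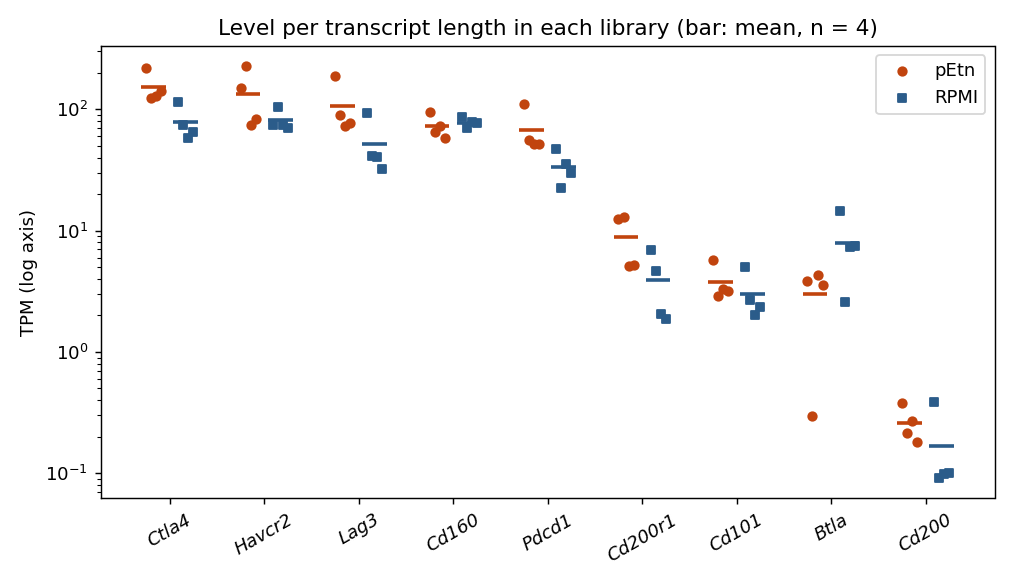
Level of each gene in TPM on a log axis, for the 4 pEtn libraries (orange circles) and the 4 RPMI libraries (blue squares), with bars at the means. The 5 genes on the left lie above 22 TPM in every library and the 4 on the right below 15 TPM, with Btla higher and Cd200r1 lower in RPMI.

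The ligands of these receptors can also be made by T cells. Of 13 ligand genes 9 were tested, and 1 rose and 0 fell, beside 5.22% of all genes tested called higher and 7.56% lower. The median log2 fold change of the list was -0.01. Cd86, a ligand of CTLA-4 and CD28, was the one that rose, at 11.9, 4.57, 9.71 and 8.21 CPM in pEtn libraries 1 to 4, against 2.01, 1.55, 1.005 and 0.715 CPM in RPMI libraries 1 to 4. The media did not overlap, the log2 fold change was 2.69 (SE 0.38, edgeR adjusted p = 0.00264), and the call held without each library in turn. Cd80, the other ligand of CTLA-4, averaged 13.5 CPM with pEtn and 14.4 CPM in RPMI (edgeR adjusted p = 0.916). Cd274, encoding PD-L1, averaged 39.8 CPM with pEtn and 34.1 CPM in RPMI, Pdcd1lg2, encoding PD-L2, 9.93 CPM and 10.9 CPM, and Tnfrsf14, encoding HVEM, 7.17 CPM and 5.76 CPM (edgeR adjusted p = 0.384, 0.813 and 0.249). Lgals9, encoding galectin-9, averaged 92.2 CPM with pEtn and 74.3 CPM in RPMI and was called with the block only (edgeR adjusted p = 0.307 without it and 0.0151 with it), and it was not called with the block once replicates 3 and 4 were summed. Fgl1 and Vtcn1 had no counts in any library. Cd86 is also made by dendritic cells and B cells. The 7 dendritic cell markers summed to between 11.8 and 66.0 CPM with pEtn and between 16.3 and 52.7 CPM in RPMI, and the 6 B cell markers to between 0.957 and 3.39 CPM with pEtn and between 0.909 and 2.73 CPM in RPMI, with Siglech, Ms4a1 and Pax5 at 0. Within the dendritic cell list H2-Ab1 had 36.5, 25.2, 3.35 and 3.98 CPM in pEtn libraries 1 to 4, against 15.8, 14.1, 1.95 and 3.38 CPM in RPMI libraries 1 to 4. Itgax had 7.42, 2.47, 1.83 and 1.33 CPM with pEtn, against 3.84, 1.44, 0.816 and 0.9753 CPM in RPMI, while Xcr1 was lower with pEtn in every number, and none of these 3 was called (edgeR adjusted p = 0.504, 0.406 and 0.228). The part of such cells in the value of Cd86 was not tested.

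Among proteins that act downstream, 3 of 17 tested genes rose and 1 fell, beside 5.22% of all genes tested called higher and 7.56% lower. The median of the list was 0.13. Inpp5d, encoding the lipid phosphatase SHIP-1, averaged 247 ± 7.83 CPM with pEtn and 168 ± 8.26 CPM in RPMI (SD, n = 4 each), a log2 fold change of 0.56 (edgeR adjusted p = 0.00240). Pag1, a membrane adaptor that brings the inhibitory kinase Csk to Src kinases, rose by 0.89, and Sh2d1a, encoding the adaptor SAP, rose by 0.85 on the log2 scale (edgeR adjusted p = 0.00689 for Pag1 and 0.00685 for Sh2d1a). Ptpn6, encoding the phosphatase SHP-1 that binds BTLA and PD-1, had 106, 68.0, 140 and 143 CPM in pEtn libraries 1 to 4, against 356, 210, 224 and 213 CPM in RPMI libraries 1 to 4. It fell by 1.14 on the log2 scale (SE 0.25, edgeR adjusted p = 0.0181), and the call was lost without pEtn replicate 1 (adjusted p = 0.0547). Ptpn11, encoding the related phosphatase SHP-2, averaged 127 CPM with pEtn and 129 CPM in RPMI (edgeR adjusted p = 0.896). With the block 6 genes of the list were called higher and 1 lower, beside 15.8% of all genes tested called higher and 16.5% lower. With replicates 3 and 4 summed as well there were 4 higher and 1 lower, beside 2329 of 11992 genes called in either direction. Without the block that sum took the call from Ptpn6 too (edgeR adjusted p = 0.0643).

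Over all 8 libraries no gene for the trafficking and turnover of these receptors was called by edgeR without the block or by limma. The list held 12 tested genes, with a median of 0.16, and 12.8% of all genes tested were called by edgeR without the block. On replicates 3 and 4 alone edgeR called 5 higher and 2 lower of the list, beside 5675 of the 11788 genes tested there. DESeq2 called 1, beside 2262 of all 11862 genes tested, and edgeR with the block called 1, beside 32.3% of them. At an unadjusted edgeR p under 0.05 there were 2 higher and 0 lower, and the share of all genes at that threshold was not computed. The smallest p of the list was that of Lrba, whose protein keeps CTLA-4 from degradation in lysosomes, at 84.2 ± 3.11 CPM with pEtn and 72.1 ± 2.23 CPM in RPMI (SD, n = 4 each, edgeR adjusted p = 0.0904, and 0.0412 with the block). With replicates 3 and 4 summed the blocked call was lost (edgeR adjusted p = 0.151).

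Of 19 tested regulators known to act on checkpoint receptor genes, 1 rose and 2 fell, with a median of 0.11. Among all genes tested 5.22% were called higher and 7.56% lower. Tox, encoding a nuclear factor that sustains PD-1 in exhausted T cells of mice, had 0.984, 0.525, 1.14 and 1.13 CPM in pEtn libraries 1 to 4, against 5.13, 2.26, 5.68 and 3.35 CPM in RPMI libraries 1 to 4. Nr4a1, encoding an early factor induced by the T cell receptor, averaged 1.80 ± 0.707 CPM with pEtn and 8.08 ± 2.51 CPM in RPMI (SD, n = 4 each). Tox fell by 2.12 on the log2 scale (edgeR adjusted p = 0.00638), and Nr4a1 fell by 2.16 (edgeR adjusted p = 0.00296), while Pdcd1 was higher in the same libraries. Nfatc1, encoding an NFAT factor known to bind the Pdcd1 gene, averaged 131 ± 14.3 CPM with pEtn and 91.2 ± 17.1 CPM in RPMI (SD, n = 4 each) and rose by 0.52 (edgeR adjusted p = 0.0439). The call of Nfatc1 was lost without pEtn replicate 1, 3 or 4 or RPMI replicate 3 or 4, with adjusted p up to 0.124. With the block the list held 3 higher and 6 lower genes, beside 15.8% of all genes tested called higher and 16.5% lower. With replicates 3 and 4 summed as well it held 2 higher and 5 lower, beside 2329 of 11992 genes called in either direction. In that fit Nfatc1 was not called (edgeR adjusted p = 0.0747).

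**Figure D5:**
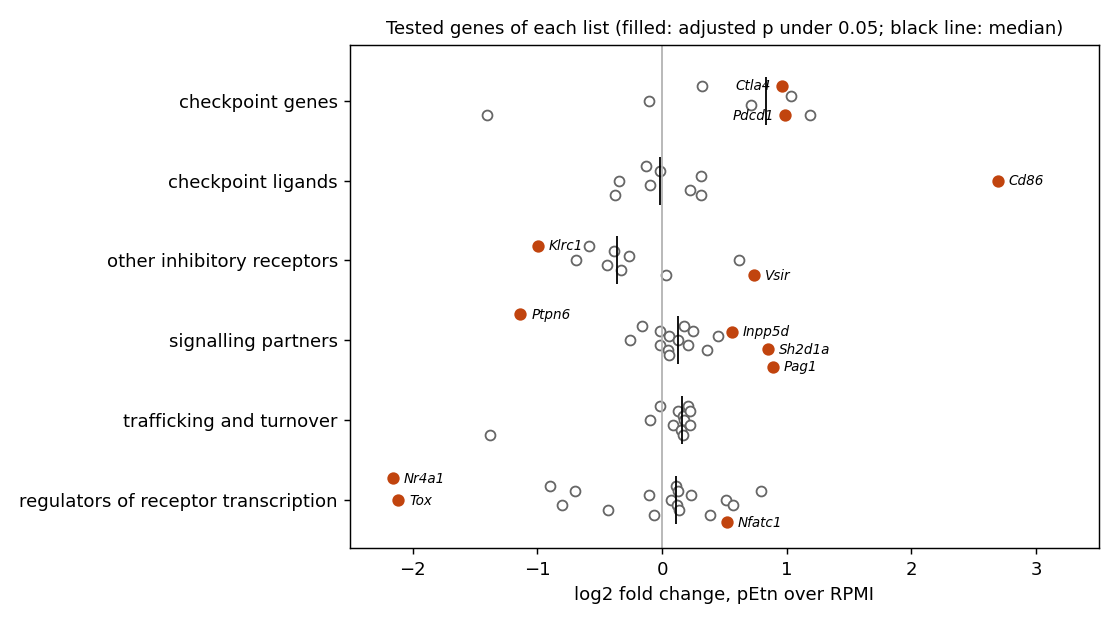
log2 fold change of pEtn over RPMI for every tested gene of the checkpoint group and of 5 related lists, with filled named points at an adjusted p under 0.05 and a black line at each list's median. Cd86 lies far to the right of the other ligands, and Tox and Nr4a1 far to the left of the other regulators.

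Inhibitory receptors outside the group were listed as well. Of 14, 12 were matched and 10 tested, and 1 rose and 1 fell, beside 5.22% of all genes tested called higher and 7.56% lower. The median of the list was -0.36. Vsir, encoding the inhibitory receptor and ligand VISTA, averaged 179 ± 33.5 CPM with pEtn and 108 ± 18.5 CPM in RPMI (SD, n = 4 each) and rose by 0.74 on the log2 scale (edgeR adjusted p = 0.0148). Without RPMI replicate 3 the edgeR adjusted p of Vsir was 0.0511. Klrc1, encoding the inhibitory lectin receptor NKG2A, averaged 59.8 ± 14.3 CPM with pEtn and 120 ± 31.3 CPM in RPMI (SD, n = 4 each) and fell by 0.998 on the log2 scale (edgeR adjusted p = 0.0181). With replicates 3 and 4 summed and no block neither was called (edgeR adjusted p = 0.0743 for Vsir and 0.0940 for Klrc1), and with the block both were.

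The genes with the nearest patterns over the 8 libraries were found by the root mean square difference of centred log2 CPM among 8817 genes. Nearest to Pdcd1 were Bzrap1 and Rab37, at 0.10 and 0.22 on the log2 scale, where Pdcd1 itself varied by 0.63 around its mean. Nearest to Ctla4 were Ccng2 and Rab37 at 0.12 and 0.15, and nearest to Lag3 were Ptms and Bzrap1 at 0.22 and 0.23. Ptms is the gene nearest to Lag3 on the chromosome in RefSeq (GRCm38.p6) and does not overlap it there, and whether reads are shared between them was not tested. Nearest to Cd200r1 were Acp5 and Als2cl at 0.23 and 0.28, to Havcr2 were Ier3 and Myo6 at 0.13 and 0.16, and to Cd101 were Pik3r5 and Sgsh at 0.12 and 0.13. Cd160 had Use1 and Nsmf at 0.09 and 0.10, where Cd160 varied by 0.20. The largest distances were those of Btla: the nearest, Itgae and Klf2, lay at 0.51 and 0.52, where Btla varied by 1.46. Distances were not scaled to the variation of each gene. These distances are descriptions over libraries that share replicate numbers.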

How the data were processed

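RNA was sequenced from sorted CD8 T cells, with cDNA made by a SmartSeq kit, per the labels' protocols. The submitters' processing notes name the build GRCm39; aligner, counter and strandedness were not given in the sources used here. The table deposited by the authors gives whole-number counts, RPKM, TPM and a further signal headed CPM for 45232 genes in 8 libraries; RPKM and that signal, both as deposited, were not used. The test was that of edgeR 4.0.16 (R 4.3.3). filterByExpr left 11862 of 17625 genes with any count, libraries were scaled by TMM, and the robust quasi-likelihood F test was adjusted by Benjamini-Hochberg over all genes tested, with calls at 0.05. Standard errors come from the F statistic. The scripts were tested on simulated data first. TPM values deposited by the authors served to compare levels between genes and, with limma 3.58.1, as alternatives; DESeq2 1.42.0 was another. Precision depends on the number of libraries, 4 per medium, and for genes with few counts (Cd200, Btla and Cd200r1) also on depth.

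The 9 genes and the related lists were chosen with earlier results of these data known. Named from each list are its called members (up to 6), or else the one with the smallest p; other names were chosen after their values were seen. Of the list symbols, 2 were matched through their gene ID to an older symbol in the table (Vsir and Cd244a). Same-numbered libraries correlated at 0.60, 0.58, 0.51 and 0.51 in their deviations from the group means across 11862 genes, all above 0.1. The highest values between different numbers were 0.47 and 0.45, both between numbers 3 and 4 and close to the same-numbered values there. The main test used the medium alone, and the fit with the number as a block was run as an alternative. No label states a pairing by number. The summed CPM of 8 marker lists was compared by an exact two-sided permutation test over libraries, where the smallest adjusted p was 0.514 and the smallest raw p the design allows is 0.0286. The CD4 and regulatory T cell markers summed to between 52.7 and 69.1 CPM with pEtn and between 26.6 and 55.1 CPM in RPMI, of which Zbtb7b rose by 0.68 on the log2 scale (edgeR adjusted p = 0.0262), a call lost in 5 of 8 fits that left out a library (pEtn replicate 1, 2 or 4, RPMI replicate 3 or 4; adjusted p up to 0.0792) and with replicates 3 and 4 summed (0.0984); their part in the values of Ctla4 was not tested.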

Additional observations from a re-analysis of the deposited data

Results flagged for a closer look

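In groups of 4 libraries, 1 library stood apart from the other 3 by Dixon's test in 7 of 34 groups examined, where chance flags about 1 in 20, and 6 of the 7 concerned a library numbered 1. With pEtn, library 1 was high for Pdcd1 at 79.1 CPM (others 37.7 to 41.4 CPM), for Ctla4 at 191 CPM (others 111 to 125 CPM) and for Lag3 at 148 CPM (others 58.8 to 73.1 CPM). The summed CD4 and regulatory T cell markers were also highest there, at 69.1 CPM (others 52.7 to 55.2 CPM). Of that sum Zbtb7b held 39.2 CPM and Gata3 24.5 CPM, while Cd4 was at 0.254 CPM and Foxp3 at 0.412 CPM. In RPMI, library 1 was high for Lag3 at 73.3 CPM (others 26.7 to 33.5 CPM) and for Cd200 at 0.480 CPM (others 0.117 to 0.130 CPM). Havcr2 was high in RPMI library 2 at 109 CPM (others 74.9 to 78.5 CPM).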

How the results depend on the processing

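The number of all genes called was 1516, and of the 9 checkpoint genes 2 were called higher and 0 lower. With the replicate block 3830 genes were called, and 4 of the 9 were higher and 1 lower, also with Cd200r1 and Cd200r4 summed. With replicates 3 and 4 summed 325 genes and 0 of the 9 were called, and 2329 genes, 4 higher and 1 lower with the block as well. Replicates 1 and 2 alone gave 32 genes and 0 of the 9, and replicates 3 and 4 alone gave 5675 genes, 5 higher and 2 lower. Of the 9, only Ctla4 was called with upper quartile factors, beside 1541 genes in all, and with library totals, beside 1550. The same held with no filter (1333 of 17625 genes tested). It held with a filter of 5 CPM in 4 libraries (1449 of 9209), which Cd200r1, Cd101 and Cd200 did not pass. For limma on TPM it held with a pseudocount of 1 (1471 genes) or 0.1 (1460 genes). DESeq2 called 3 of the 9, beside 2262 genes. Leaving out 1 library gave 796 to 1638 genes, 0 to 3 higher and 0 lower, and leaving out both libraries of a number with the block gave 2216 to 3605 genes (3070 without number 1), 4 to 5 higher and 0 to 1 lower. The direction was the same in every fit run for 7 of the 8 genes tested; Cd160 turned to 0.025 with replicates 1 and 2 only. The causes were not tested. Counts of the related lists also moved, for regulators up to 8 higher and 8 lower, in the fit of replicates 3 and 4 alone that called 5675 of 11788 genes. The fits that sum Cd200r1 with Cd200r4 or leave out both libraries of a number were chosen after seeing the data.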

Other observations

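With the replicate number as a block, 4 of the 10 tested inhibitory receptors outside the group fell and 1 rose, beside 16.5% of all genes tested called lower and 32.3% in either direction. With replicates 3 and 4 summed as well, 3 were called lower and 1 higher, beside 2329 of 11992 genes called in either direction. The 4 that fell with the block and without that sum were Klrc1, its partner Klrd1, encoding CD94, Tigit and Cd96. In that fit Klrd1 was at -0.63, Tigit at -0.68 and Cd96 at -0.39 on the log2 scale (edgeR adjusted p = 0.0262, 0.000785 and 0.0180). These 3 were named after their values were seen. Klrc1 kept its call with the sum (edgeR adjusted p = 0.0249), but not all of these 3 did. Tigit and Cd96 encode receptors that compete with CD226 for the same ligand. Tigit was lower with pEtn in 4 of 4 numbers, beside 23.9% of all genes tested, with log2 differences of -0.72, -0.58, -0.73 and -0.70. It averaged 14.9 CPM with pEtn and 24.0 CPM in RPMI, and without the block its adjusted p was 0.0673. Among regulators, Nr4a3, Nr4a2, Eomes and Irf4 were also lower with the block, at -0.93, -0.80, -0.75 and -0.41 on the log2 scale. Foxo1 and Tbx21 were higher with it, at 0.60 and 0.58. The edgeR adjusted p of these 6 lay between 0.00103 and 0.0464, beside 15.8% of all genes tested called higher and 16.5% lower. With replicates 3 and 4 summed as well, not all 4 of the lower genes kept their call. Without the block none of these 6 regulators was called.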
